A study of Mus musculus with 10 samples.

Results

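Immediate early genes are switched on within minutes of a stimulus, without new protein synthesis, by kinase cascades that act on factors already bound at their promoters. Most encode transcription factors. Fos and Jun proteins pair through leucine zippers into AP-1, which binds the TGANTCA site, while EGR1, ATF3 and KLF6 bind DNA through other domains or pairings. In the kidney these genes are known for brisk induction after ischaemic or toxic injury of the tubule, and also respond to handling and to the time between death and freezing of the tissue.

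The 10 genes described here are Fos, Fosb, Jun, Junb, Jund, Egr1, Ier2, Atf3, Btg2 and Klf6. They were chosen by name, with earlier results of these data known, from the 24062 genes of the joined count matrix. All 10 passed the filter on low counts that left 15547 genes for testing. The kidneys came from adult male mice on the C57BL/6N background, 4 with the Ehhadh genotype ko (KO) and 4 with the genotype wt (WT), plus 1 wt kidney each of the strains 129S2_SvPasCrl and DBA_2J. Ehhadh encodes the bifunctional enzyme of peroxisomal beta-oxidation. The kind of knockout allele, the exact ages and any treatment were not given in the sources used here. Libraries were made from polyA RNA of bulk kidney and read from a single end. In bulk tissue, fewer cells of a type and less RNA per cell cannot be told apart.

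Ehhadh itself checked the genotype labels: it stood at 285, 331, 248 and 176 CPM (counts scaled to library size) in KO 1 to KO 4 and at 3439, 2232, 2100 and 2197 CPM in WT 1 to WT 4. Replicate numbers follow the order of deposit and pair no animals. The total assigned to genes was 41.5 to 52.3 M reads in KO and 19.8 to 36.0 M reads in WT, so every KO library was deeper than every WT library (exact permutation test, two-sided, p = 0.0286, the smallest 4 against 4 can give). Across all genes tested, 6.32% were called higher and 4.68% lower in KO at an adjusted p of 0.05 (edgeR quasi-likelihood test, Benjamini-Hochberg adjustment), with a median log2 fold change of -0.01. Summed markers of injured tubule ran from 1236 to 2082 CPM in KO and from 988 to 1339 CPM in WT, and 7 of the 10 were called higher. Much of the injured tubule sum was Spp1, which averaged 869 CPM in KO and 555 CPM in WT. In KO 4 Spp1 reached 1328 CPM. Summed principal cell markers ran from 437 to 481 CPM in KO and from 648 to 958 CPM in WT, with 7 of 7 called lower, and proximal tubule markers from 27528 to 33542 against 37240 to 38881 CPM, with 4 of 10 called lower. Much of the proximal tubule sum was Kap, which averaged 18966 CPM in KO and 25293 CPM in WT. The 10 markers had a median log2 fold change of -0.27. Slc34a1 averaged 5605 and 5607 CPM, and Slc5a12 309 and 230 CPM, higher in KO but not called (edgeR adjusted p = 0.0715). Distal convoluted tubule markers spanned 916 to 1191 CPM in KO and 1260 to 1659 CPM in WT, with 3 of 5 lower. Intercalated cell markers spanned 162 to 186 against 225 to 262 CPM, with 4 of 6 lower. Smooth muscle and pericyte markers spanned 131 to 159 against 165 to 194 CPM, with 5 of 8 lower. The sums of thick ascending limb, podocyte, endothelium and fibroblast markers overlapped between genotypes. Macrophage markers spanned 101 to 123 CPM in KO and 118 to 137 CPM in WT, with 1 of 9 higher and 1 lower, while Cyp11b2 of the adrenal gland and Myh4 of skeletal muscle were at 0 in every library. The part these differences play in the results below was not tested.

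The bases just before the transcription start are shown for the 5 genes whose window held a motif of the ATF and Jun kind, since 3 of them (Klf6, Btg2 and Atf3) were called higher in KO and the other two (Jun and Fos) were not. Each window is the 250 bases before the RefSeq start (GRCm38.p6), 5′ to 3′ on the gene's own strand, and capitals mark the match.

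Klf6 (chr13:5861239-5861488, plus strand): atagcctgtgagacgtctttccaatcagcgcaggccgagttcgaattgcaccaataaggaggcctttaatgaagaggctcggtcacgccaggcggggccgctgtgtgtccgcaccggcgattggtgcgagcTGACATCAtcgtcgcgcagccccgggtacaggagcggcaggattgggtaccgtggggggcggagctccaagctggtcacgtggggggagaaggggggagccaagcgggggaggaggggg

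Jun (chr4:95052223-95052472, minus strand): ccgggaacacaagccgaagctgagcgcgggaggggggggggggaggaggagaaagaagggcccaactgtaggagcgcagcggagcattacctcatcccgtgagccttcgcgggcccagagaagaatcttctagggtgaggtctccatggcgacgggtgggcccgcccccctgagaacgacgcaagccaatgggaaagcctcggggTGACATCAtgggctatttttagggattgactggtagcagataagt

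Btg2 (chr1:134079156-134079405, minus strand): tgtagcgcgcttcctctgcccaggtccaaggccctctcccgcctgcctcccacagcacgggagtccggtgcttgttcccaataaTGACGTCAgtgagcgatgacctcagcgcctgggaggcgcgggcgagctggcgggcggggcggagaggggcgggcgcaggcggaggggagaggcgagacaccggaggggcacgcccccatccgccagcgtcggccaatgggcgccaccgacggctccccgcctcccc

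Atf3 (chr1:191183334-191183583, minus strand): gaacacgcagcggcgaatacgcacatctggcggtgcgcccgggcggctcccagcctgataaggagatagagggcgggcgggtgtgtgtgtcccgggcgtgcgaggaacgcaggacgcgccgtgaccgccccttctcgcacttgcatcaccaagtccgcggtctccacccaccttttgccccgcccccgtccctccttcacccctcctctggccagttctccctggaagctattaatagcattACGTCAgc

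Fos (chr12:85473640-85473889, plus strand): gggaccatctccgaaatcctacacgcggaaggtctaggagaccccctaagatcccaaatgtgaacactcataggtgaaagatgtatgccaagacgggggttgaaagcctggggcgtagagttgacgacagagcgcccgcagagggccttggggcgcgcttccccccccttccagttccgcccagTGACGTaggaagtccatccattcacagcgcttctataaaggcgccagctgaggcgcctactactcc

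The capitals in Klf6 and Jun are TGACATCA, a variant AP-1 site known from the Jun promoter, which began 119 bases before the Klf6 start and 45 bases before the Jun start. Btg2 held the full cyclic AMP response element TGACGTCA, beginning 166 bases before its start. Atf3 and Fos held only its first part, TGACGT, which in Atf3 reads ACGTCA on the gene's strand and lies 8 to 3 bases before the start. Both strands were searched in 32851 windows of the same length. TGACGTCA was in 1.55% of them, TGACGT (which lies inside TGACGTCA) in 6.47% and TGACATCA in 2.93%. The AP-1 letters TGANTCA (6.75% of windows) and the CArG box bound by SRF (1.47%) matched none of the 8 members with a window. That says only that these letters are not in these 250 bases. Junb, Jund and Fosb had windows with none of these matches, and Ier2 and Egr1 had no entry in the table used.

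In KO kidneys the class did not move as a block. Klf6, Atf3, Btg2 and Jund were called higher, none was called lower, and Fos, Egr1 and Ier2 had fold changes whose intervals spanned 0. The 4 of 10 called higher compare with 6.32% of all genes tested, and 3 of 10 (Klf6, Atf3 and Jund) had all KO libraries above all WT libraries, against 9.77% of all genes. The median log2 fold change of the 10 was 0.56. The plot of fold changes shows this split.

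**Figure D1:**
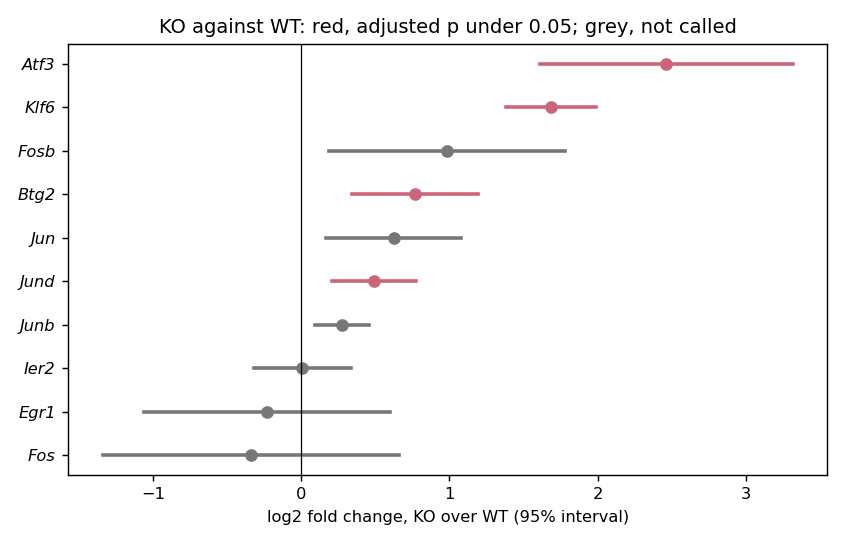
Log2 fold change of KO over WT for each gene (point) with its 95% interval (line), from the edgeR quasi-likelihood test over 4 KO and 4 WT kidneys. Atf3 and Klf6 stand farthest to the right at 2.46 and 1.69, and the intervals of Ier2, Egr1 and Fos cross 0.

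Klf6, a zinc-finger factor of the Krüppel-like family that is known as an injury-responsive factor in the tubule (chr13:5861489-5870393 on mm10, plus strand, 4217 exon bases), stood at 104, 84.8, 102 and 63.8 CPM in KO 1 to KO 4. In WT 1 to WT 4 it stood at 25.4, 28.7, 30.3 and 25.5 CPM. The lowest KO kidney was thus above the highest WT kidney with a wide gap. The fold change was 3.22 (95% interval 2.60 to 3.98; log2 1.69, SE 0.14; adjusted p = 4.94e-05, edgeR), and Klf6 was the 29th gene of 15547 by p. Its call held in all 8 fits that left out 1 library.

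Atf3, a stress-induced bZIP factor that pairs with Jun proteins and with itself (chr1:191170297-191183333, minus strand), was scarce in WT, at 1.39, 2.48, 1.25 and 1.21 CPM. The KO kidneys held 12.4, 6.56, 12.3 and 3.81 CPM. All KO libraries lay above all WT libraries, although the KO values themselves spread widely. Atf3 had the largest fold change of the 10 genes, 5.52 (95% interval 3.05 to 9.98; log2 2.46, SE 0.39; adjusted p = 0.00263, edgeR). The call held in all 8 fits without 1 library, with an adjusted p of at most 0.0127.

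Btg2, an antiproliferative cofactor that recruits mRNA deadenylases and is a p53 target (chr1:134074865-134079155, minus strand), stood at 44.1, 43.5, 43.6 and 21.8 CPM in KO and at 22.2, 20.3, 25.8 and 21.3 CPM in WT. KO 1 to KO 3 lay close together above every WT kidney, while KO 4 lay inside the WT range. The log2 fold change was 0.77 (SE 0.19; adjusted p = 0.0277, edgeR). Without KO 4 it was 0.96 with an adjusted p of 9.35e-05, and without WT 3 the call also held, at an adjusted p of 0.0444. Leaving out any of the other 6 libraries (KO 1, KO 2, KO 3, WT 1, WT 2 or WT 4) ended the call, with adjusted p from 0.0601 to 0.0760, and limma-voom gave an adjusted p of 0.0807.

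Jun proteins pair with Fos proteins or with one another in AP-1. Jund, the subunit with the steadiest expression and one tied to restraint of growth (chr8:70697739-70700616, plus strand), stood at 178, 121, 157 and 118 CPM in KO. In WT it stood at 88.6, 106, 102 and 113 CPM. The groups did not overlap, but KO 2 and KO 4 were close to the highest WT kidney. The log2 fold change was 0.49 (SE 0.13; adjusted p = 0.0331, edgeR), and the call was lost without KO 1 (adjusted p = 0.0784), KO 3 (0.0757), WT 1 (0.0871), WT 2 (0.0616) or WT 3 (0.0794).

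Jun, the founding AP-1 subunit and target of the kinase JNK (chr4:95049036-95052222, minus strand), stood at 66.1, 77.4, 86.0 and 45.3 CPM in KO and at 45.8, 37.0, 61.2 and 34.3 CPM in WT. KO 1 to KO 3 were above every WT kidney, and KO 4 lay among the WT values. The log2 fold change of 0.62 (SE 0.21; 95% interval 0.17 to 1.08) did not pass adjustment (adjusted p = 0.0796, edgeR). Jun was called without KO 4 (0.78, adjusted p = 0.0184) and without WT 3 (0.82, adjusted p = 0.0336). Junb, which can oppose Jun in proliferation (chr8:84976909-84978748, minus strand), varied least. The KO kidneys held 21.7, 24.5, 25.9 and 24.4 CPM, and the WT kidneys 19.9, 17.7, 20.2 and 21.8 CPM. KO 1 lay just under WT 4, so the groups overlapped by that 1 pair. Its log2 fold change was 0.28 (SE 0.08; adjusted p = 0.0570, edgeR), and it was called without WT 4 (adjusted p = 0.0451) and by DESeq2 (adjusted p = 0.0310).

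Fos, the classical acute response gene and obligate partner of Jun proteins (chr12:85473901-85477270, plus strand), was scarce in both groups, with 24 to 119 reads per library. It stood at 0.977, 1.57, 2.10 and 0.648 CPM in KO and at 1.23, 0.987, 3.30 and 1.05 CPM in WT. WT 3 held the highest value of all 8 kidneys and KO 4 the lowest, and the groups overlapped throughout. The log2 fold change was -0.34 (95% interval -1.34 to 0.66; adjusted p = 0.695, edgeR), and without WT 3 its sign turned, to 0.29 (adjusted p = 0.744). Fosb, a close paralogue known for slow accumulation of a truncated protein in neurons (chr7:19302696-19310045, minus strand), was the scarcest. The KO kidneys held 1.26, 1.11, 0.607 and 0.553 CPM, and the WT kidneys 0.411, 0.382, 0.582 and 0.382 CPM. KO 1 and KO 2 were the highest, and KO 4 lay under WT 3. Its log2 fold change of 0.98 (95% interval 0.19 to 1.78; adjusted p = 0.109, edgeR) rested on 8 to 63 reads per library.

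Egr1, a zinc-finger factor induced through SRF and ELK1 (chr18:34861207-34864956, plus strand), stood at 4.83, 4.90, 6.48 and 3.28 CPM in KO and at 4.11, 3.44, 11.6 and 3.40 CPM in WT. As for Fos, WT 3 was the highest kidney and KO 4 the lowest, and the groups overlapped. The log2 fold change was -0.23 (95% interval -1.06 to 0.60; adjusted p = 0.752, edgeR), and without WT 3 it turned to 0.43 (adjusted p = 0.312). Ier2, a small nuclear protein of the immediate early class (chr8:84661331-84662852, minus strand), stood at 14.7, 16.8, 14.8 and 9.72 CPM in KO and at 13.7, 12.2, 14.9 and 14.8 CPM in WT. KO 4 was the lowest of the 8 kidneys, and the others lay between 12.2 and 16.8 CPM. Its log2 fold change was 0.01 (95% interval -0.32 to 0.33; adjusted p = 0.986, edgeR), and it changed sign in several of the fits that left out 1 library, between -0.09 and 0.15. No member shared exon bases with another gene in the deposited annotation.

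**Figure D2:**
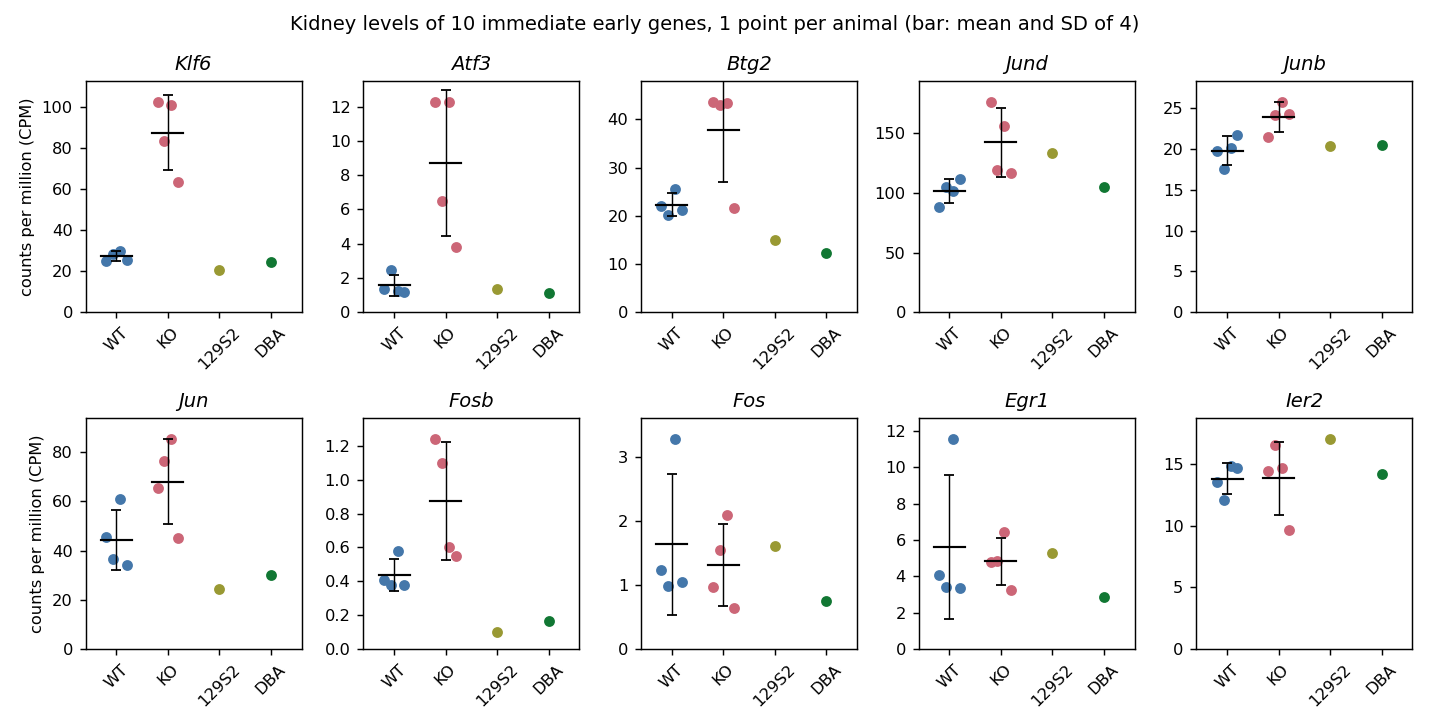
CPM of the 10 genes, 1 point per kidney, for WT, KO, 129S2_SvPasCrl and DBA_2J. Bars give the mean and SD of the 4 WT and 4 KO kidneys. The KO points of Klf6, Atf3 and Jund all lie above the WT points, and WT 3 is the single high point in the WT columns of Fos and Egr1.

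KO 4 and WT 3 stood at the edge of their groups in most members. KO 4 was the lowest KO kidney in 9 of the 10 genes, all but Junb, and WT 3 was the highest WT kidney in 7 of the 10. The share of all genes in which these kidneys took the same places was not counted. The injury marker Havcr1 (KIM-1, a receptor of damaged proximal tubule) stood at 35.0, 40.1, 29.1 and 75.4 CPM in KO 1 to KO 4 and at 1.34, 1.34, 2.13 and 2.45 CPM in WT 1 to WT 4. KO 4 thus held the highest Havcr1 and the lowest Klf6, Atf3 and Btg2 of the KO kidneys. Leaving out KO 4 and WT 3 together was added after the data were seen. Since these were the lowest KO and the highest WT kidney in most members, the choice itself widens most differences (Jun from 0.62 to 0.98, Fos from -0.34 to 0.52 on the log2 scale), and nothing is read from the calls of that fit.

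**Figure D3:**
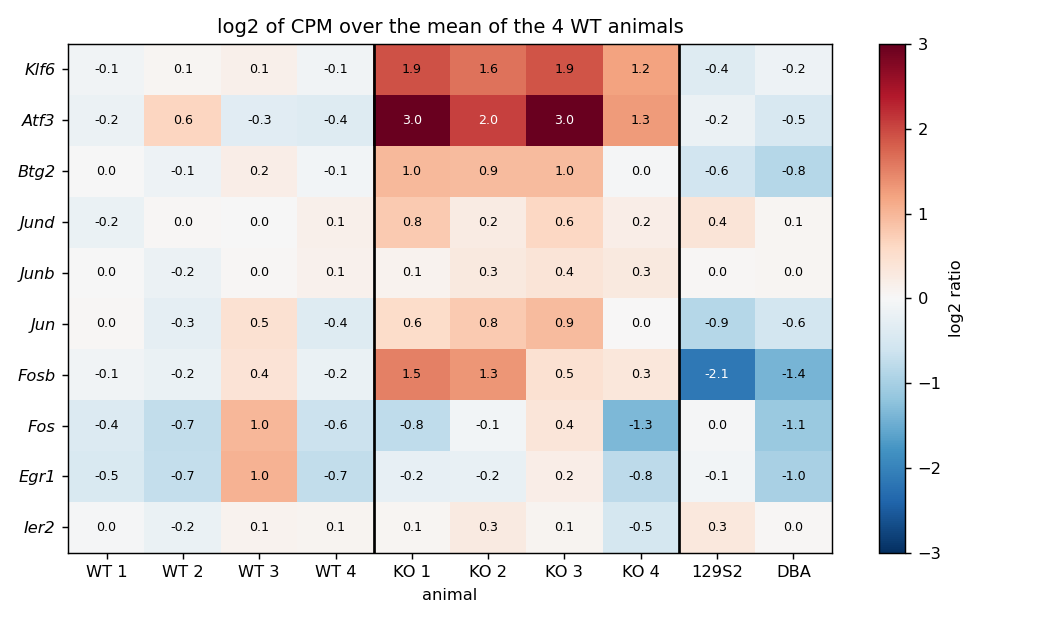
Log2 ratio of each kidney's CPM to the mean of the 4 WT kidneys, by gene and animal, with red above and blue below the mean. The KO columns are red in the rows of Klf6 and Atf3, the KO 4 column holds the lowest KO value in 9 of the 10 rows, and WT 3 is red for Fos and Egr1.

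Spread between kidneys of the same genotype differed by gene. The biological coefficient of variation was 43.3% for Fos, 36.8% for Egr1 and 34.7% for Atf3, but 13.8% for Klf6, 13.3% for Jund and 8.95% for Junb, beside 12.3% common to all genes. After removing the genotype means, Fos and Jun deviated together (Pearson r = 0.95, Spearman rho = 0.98, n = 8 kidneys, exact permutation within genotype, p = 0.00347 and 0.00521), and r was 0.92 without WT 3 and KO 3. Fos and Egr1 had r = 0.94 and rho = 0.95 (exact permutation p = 0.00347 and 0.00521), with r = 0.80 without the same kidneys. Atf3 and Klf6 had r = 0.85 and rho = 0.64 (exact permutation p = 0.0330 and 0.118), with r = 0.80 without WT 2 and KO 4. Of 45 pairs, 40 had r above 0, with a median of 0.49, and none passed an adjusted p of 0.05. The adjusted p of r was 0.0521 for Fos with Jun and Fos with Egr1, and 0.165 for Atf3 with Klf6. Jun and Egr1 (r = 0.88, adjusted p = 0.0521) had the smallest p that 576 orders within genotype can give (exact permutation, p = 0.00174). A single pair at that p could not pass adjustment over 45, so the lack of calls says little. All pairs come from the same 8 libraries and share their depth and scaling.

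By a rule of likeness, the 6 genes of 13729 whose deviations from the genotype means followed the members' mean deviation most closely were 4930592A05Rik (r = 0.98 over 8 kidneys), Rasa4 (0.98), Hist1h2bl (0.97), Fhl3 (0.97), Pdgfa (0.97) and Bloc1s1 (0.96). None of them was itself called between genotypes. Pdgfa came closest (log2 0.49 higher in KO, SE 0.14; edgeR adjusted p = 0.0535).

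Levels were compared between genes per kilobase of exon (RPKM). In WT kidneys the order was Jund (35.5 ± 3.51, SD, n = 4), Jun (14.0 ± 3.80), Junb (10.8 ± 0.93), Ier2 (9.14 ± 0.82), Btg2 (7.27 ± 0.78), Klf6 (6.52 ± 0.58), Egr1 (1.84 ± 1.30), Atf3 (0.80 ± 0.31), Fos (0.78 ± 0.53) and Fosb (0.12 ± 0.025). Over the 4 kidneys, each neighbouring pair from Jun down to Klf6 and from Egr1 down to Fos had overlapping ranges. Gaps without overlap lay between Jund and Jun, between Klf6 and Egr1 and between Fos and Fosb. Klf6 was the sixth in WT and the third in KO, at 21.0 ± 4.40 RPKM, next to Jun at 21.6 ± 5.52. Atf3 reached 4.44 ± 2.17 RPKM in KO, above Egr1 at 1.59 ± 0.43.

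The mix of Fos and Jun transcripts was read as each gene's share of its family's counts per kilobase. These are shares of RNA, and AP-1 protein was not measured. Among the Jun genes Jund held 58.9% ± 5.32 in KO and 58.9% ± 5.13 in WT (SD, n = 4 each), Jun 25.3% against 23.1%, and Junb 15.8% against 18.0%. None of these shares was called (exact permutation tests, adjusted p over 4 shares from 0.629 to 1). The smallest p this test can give is 0.0286, so 1 share alone could not pass adjustment over 4. Before adjustment, Junb had the lowest p of the Jun genes (exact permutation test, p = 0.314). Among the Fos genes, Fosl2, a subunit with basal expression in epithelia, took most of the family's counts per kilobase, 64.8% to 74.6% in KO and 67.7% to 85.3% in WT. Fos itself held 7.55% ± 3.10 in KO and 13.5% ± 6.75 in WT (exact permutation test, adjusted p = 0.457). Fosl1 is the Fra-1 subunit, and its share was not among the 4 tested. It held 26.1%, 20.2%, 18.7% and 18.5% in KO 1 to KO 4 and 7.30%, 3.61%, 6.53% and 9.56% in WT 1 to WT 4, with no overlap. Its level rose from 0.64 ± 0.23 CPM in WT to 2.93 ± 0.74 CPM in KO (log2 2.19, SE 0.30; adjusted p = 0.00122, edgeR). Fosl1 rested on 10 to 196 reads per library, with 10 to 27 in the shallower WT libraries.

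**Figure D4:**
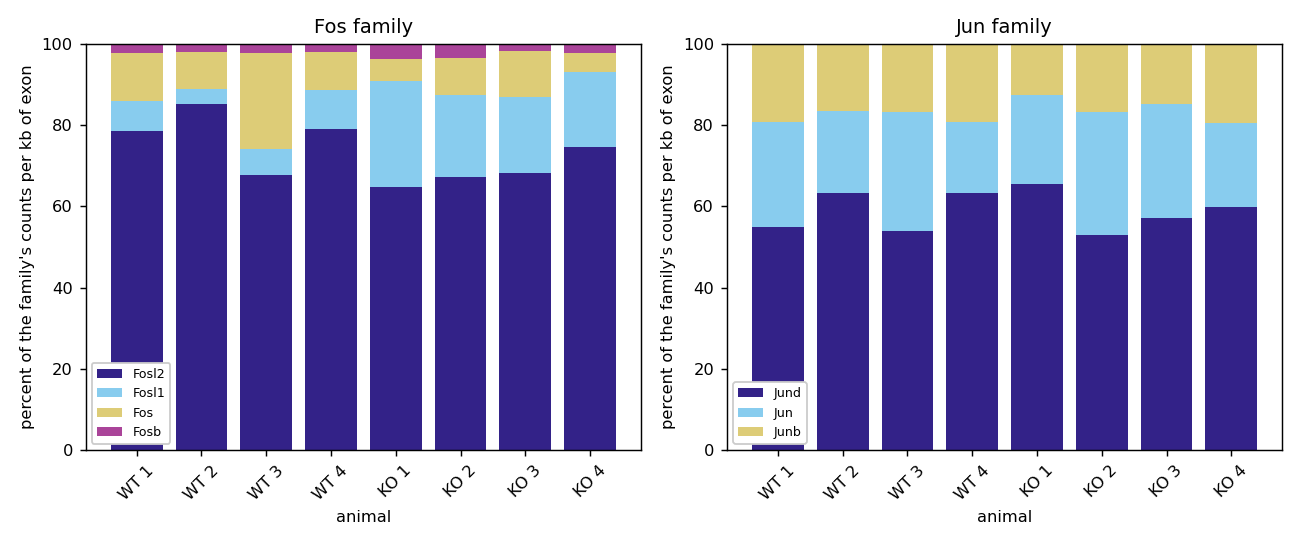
Stacked shares (percent of the family's counts per kilobase of exon) of the Fos genes (left) and the Jun genes (right) in each WT and KO kidney. The Fosl1 band is 18.5% to 26.1% in KO and 3.61% to 9.56% in WT, while the Jund band averages 58.9% in both genotypes.

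Other genes of the pathway were taken from lists that overlap in part and are given by counts against the 6.32% higher and 4.68% lower of all genes. The lists were chosen with earlier results of these data known, so the counts describe them and are no independent test. Of 22 other AP-1 and related bZIP genes, 5 rose and none fell (median log2 0.18). They were Fosl1 and Fosl2 (0.39, adjusted p = 0.0106), Atf5, a bZIP factor of the stress response (1.06, adjusted p = 4.44e-04), and, named after their values were seen, the small Maf factor Maff (0.90, adjusted p = 0.0164) and the cyclic AMP factor Crem (0.38, adjusted p = 0.0280; all edgeR). Maff was not called without KO 1 or WT 3 (adjusted p up to 0.0528), nor Crem without KO 1, KO 2, KO 3, WT 1, WT 2 or WT 4 (up to 0.0804).

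Of 28 other immediate early transcription factors, 5 rose and none fell (median 0.15). Besides Fosl1, Fosl2 and Maff these were Myc, a driver of cell growth (1.01, SE 0.20, adjusted p = 0.0105, edgeR), and Klf9 (0.50, adjusted p = 0.0387). Klf9 was also the 1 gene called among 14 other KLF family genes, and it was not called without KO 1, KO 2, KO 4, WT 3 or WT 4 (adjusted p up to 0.106). Of 34 immediate early genes that encode no transcription factor, 4 rose and 2 fell (median 0.09). Plk3, a polo-like kinase of the stress response, rose from 17.8 ± 6.34 to 84.4 ± 37.6 CPM (log2 2.26, SE 0.36, adjusted p = 0.00281, edgeR). Pmaip1, the BH3-only protein Noxa, rose by 1.37 on the log2 scale (adjusted p = 4.15e-04), and Cited2, a modulator of p300, fell by 0.51 (adjusted p = 0.00281). Named after their values were seen, Ifrd1 rose (0.52, adjusted p = 0.0146), Rhob rose (0.75, adjusted p = 0.0498) and Ier3 fell (-0.47, adjusted p = 0.0397). Rhob kept its call only without KO 4 (otherwise adjusted p up to 0.133), and Ier3 lost it without KO 1, KO 2, KO 4, WT 1 or WT 3 (up to 0.105).

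Among 26 upstream factors and kinases that switch these genes on, 3 were called higher and 1 lower (median 0.03), close to the background. Elk1, a cofactor of SRF, rose by a log2 of 0.41 (adjusted p = 0.0245, edgeR), Mapk3, the kinase ERK1, by 0.20 (adjusted p = 0.0342), and the SRF coactivator Mkl2 by 0.25 (adjusted p = 0.0393). Elk3, named after its value was seen, fell (-0.41, adjusted p = 0.0492). These calls were not stable: Elk1 was lost without KO 3, WT 1, WT 2 or WT 3 (adjusted p up to 0.0616), Mapk3 without any library but KO 2 (up to 0.0957), Mkl2 without any but KO 3 or KO 4 (up to 0.110), and Elk3 without any but KO 3 (up to 0.143).

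The phosphatases and inhibitors that damp MAP kinases showed 4 higher and none lower of 18 (median 0.21). Dusp8, a phosphatase of JNK and p38, had the largest change, from 3.90 ± 1.01 CPM in WT to 20.5 ± 8.33 CPM in KO (log2 2.37, SE 0.31; adjusted p = 9.18e-04, edgeR). Dusp16, which also acts on JNK, rose by 0.46 (adjusted p = 0.00106), and Spred2, an inhibitor of Ras signalling, by 0.33 (adjusted p = 0.0210). Dusp6, the ERK phosphatase, was named after its value was seen and rose by 0.27 (adjusted p = 0.0475). Spred2 was not called without WT 3 or WT 4 (adjusted p up to 0.0602), and Dusp6 not without any library but WT 2 (up to 0.128).

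Of 22 genes with known AP-1 sites in their control regions, 10 rose and 1 fell (median 0.46). Among the 10 were Fosl1, already counted above, and Spp1, Cd44 and Krt8, which also belong to the injured tubule markers. Plaur, the urokinase receptor, rose from 4.03 ± 0.20 to 7.09 ± 0.54 CPM (log2 0.82, adjusted p = 0.00125, edgeR), and the metallothionein Mt1 from 131 ± 17.7 to 217 ± 26.9 CPM (log2 0.73, adjusted p = 0.00187). Plau, the urokinase that binds this receptor, was named after its value was seen and fell, from 600 ± 142 to 371 ± 28.1 CPM (log2 -0.70, adjusted p = 0.00822). Of the 10, 3 lost the call without 1 library: Spp1 without KO 1, KO 2 or any WT kidney (adjusted p up to 0.114), Hbegf without KO 1 (0.0545) and Mt2 without KO 2 (0.0509).

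Lists for programmes that include Atf3 or Btg2 were compared in the same way. Of 12 genes listed for ATF4 and CHOP, the genes of these factors included, 3 rose and none fell (median 0.51). They were Asns, asparagine synthetase, from 5.31 ± 0.82 to 19.5 ± 2.19 CPM (log2 1.88, adjusted p = 2.32e-05, edgeR), Atf5, and the pseudokinase Trib3 (1.21, adjusted p = 0.0152). Named after their values were seen, Atf4 (0.12, adjusted p = 0.633, edgeR) and Ddit3, which encodes CHOP (0.29, adjusted p = 0.271), were not called. Of 15 p53 targets, 6 rose and none fell (median 0.22), among them Plk3, Pmaip1 and the secreted stress cytokine Gdf15, which rose from 18.0 ± 2.27 to 59.2 ± 26.0 CPM (log2 1.72, adjusted p = 0.00348). Cdkn1a, another of the 6, lost its call without KO 1, KO 2, WT 2, WT 3 or WT 4 (adjusted p up to 0.106), and Bbc3 without KO 1 (0.0545). In the BTG and TOB family, Tob2 rose (0.58, adjusted p = 0.0328), 1 of 4, and was not called without KO 1, KO 2, WT 2 or WT 3 (up to 0.0904).

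Genes that respond to tissue handling were listed beside these. Of 15 inducible heat shock genes, 1 rose, close to the background (median 0.06). That gene was Hspb1, a small heat shock protein of actin, which went from 10.3 ± 3.42 to 66.0 ± 7.26 CPM (log2 2.68, adjusted p = 2.32e-05, edgeR). Hspa1a, named after its values were seen, averaged 33.4 ± 5.35 CPM over the KO kidneys and 34.5 ± 11.3 CPM over the WT kidneys (SD, n = 4 each; edgeR adjusted p = 0.902). Of 15 hypoxia and ischaemia genes none rose and 2 fell (median -0.15): the prolyl hydroxylase Egln3 (log2 -0.72, adjusted p = 0.00104) and the glycolytic regulator Pfkfb4 (-0.58, adjusted p = 0.0356). Pfkfb4 was not called without KO 1, KO 2, KO 3, KO 4 or WT 3 (adjusted p up to 0.0705).

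Over the 23 genes of the lists named by the rule, KO 4 was the lowest KO kidney in 11 and the highest in 2 (Elk1 and Spred2). KO 1 was the lowest in 2, KO 2 in 4 and KO 3 in 6. The 11 include Egln3 and Pfkfb4, which were lower in KO than in WT, so in these KO 4 lay farthest from the WT kidneys. How often KO 4 was the lowest KO kidney over all genes was not counted. Among the 11 with the lowest value in KO 4, Dusp8 stood there at 9.53 CPM, Plk3 at 35.7 CPM and Gdf15 at 27.3 CPM, against 18.4 to 27.3, 82.7 to 127 and 48.9 to 83.4 CPM in KO 1 to KO 3. Expressed over the WT mean, KO 4 was at 0.974-fold for Btg2, 2.32-fold for Klf6 and 41.5-fold for Havcr1.

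**Figure D5:**
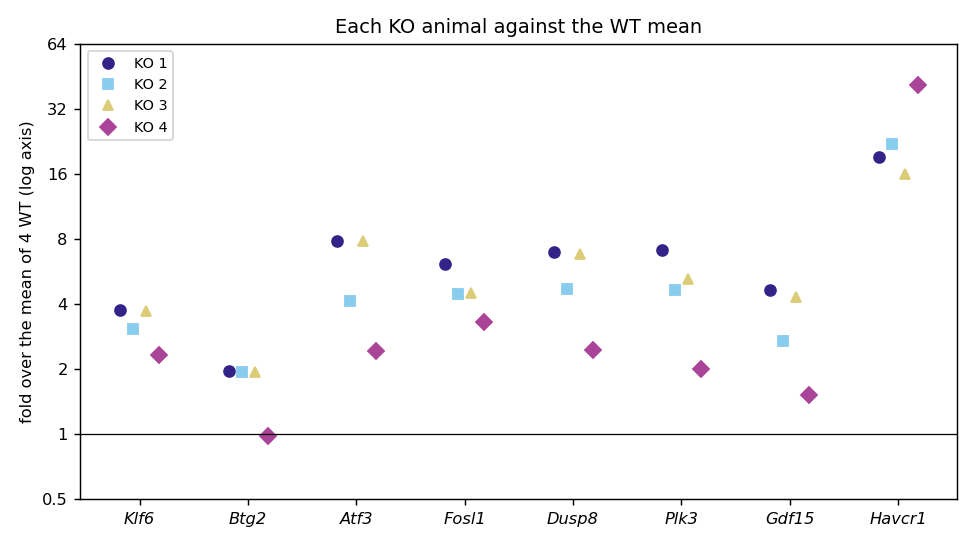
Fold of each KO kidney over the mean of the 4 WT kidneys on a log axis, for Klf6, Btg2, Atf3, Fosl1, Dusp8, Plk3, Gdf15 and Havcr1. The genes other than Havcr1 are among those in which KO 4 (diamond) was the lowest KO kidney, and in Havcr1 it is the highest at 41.5-fold.

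The sample names come in a pair of forms, with and without a leading E, 2 kidneys of each genotype in each, and the labels do not say what the forms stand for. Within the names without E the log2 fold changes were 1.79 for Klf6, 2.24 for Atf3, 1.04 for Btg2, 0.62 for Jund and 0.80 for Jun, and all 5 were called (edgeR, highest adjusted p = 0.0171). Within the names with E they were 1.57, 2.71, 0.47, 0.36 and 0.46, and only Klf6 was called (adjusted p = 0.0484). The difference between the forms was tested directly: 0% of 16060 genes passed the interaction test (edgeR, 0 called, 1035 at an unadjusted p under 0.05), no member among them at either level. With no filter on low counts, 38 genes passed it.

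The 129S2_SvPasCrl and DBA_2J kidneys, 1 library each with no replicate check, were set beside the 4 C57BL/6N WT kidneys on a common scaling. Fosb was at 0.0989 CPM in 129S2_SvPasCrl and 0.166 CPM in DBA_2J, below the WT range of 0.379 to 0.578 CPM. Btg2 was at 14.9 and 12.4 CPM, below 20.2 to 25.7 CPM. Jun was at 24.4 and 30.1 CPM, below 34.1 to 60.8 CPM, and Klf6 at 20.7 and 24.5 CPM, below 25.2 to 30.2 CPM. These 4 of 10 were below all WT kidneys in both strains, a place that 22.9% of all genes share.

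The strains parted in the other genes. Fos was at 1.60 CPM in 129S2_SvPasCrl and 0.756 CPM in DBA_2J, Egr1 at 5.30 and 2.86 CPM and Atf3 at 1.38 and 1.12 CPM, each within the WT range in the first and below it in the second. Jund (133 and 105 CPM) and Ier2 (17.1 and 14.2 CPM) were above the WT range in 129S2_SvPasCrl and within it in DBA_2J, and Junb (20.3 and 20.5 CPM) was within it in both. In all, 129S2_SvPasCrl was below the range in 4 genes (32.1% of all genes) and above in 2 (32.5%), and DBA_2J below in 7 (37.4%) and above in 0 (35.1%). Klf6 and Atf3 in both strain kidneys lay below their lowest KO values. Havcr1 stood at 62.8 CPM in the 129S2_SvPasCrl kidney, 34.9-fold over the WT mean and inside the KO range, beside 4.07 CPM in DBA_2J. The strain kidneys also differed in genes that respond to handling. Hspa1a stood at 149 CPM in 129S2_SvPasCrl and 52.1 CPM in DBA_2J, 4.34-fold and 1.52-fold over the WT mean. Hspa1b, a near-identical copy whose reads may not be told apart from it, stood at 238 and 86.6 CPM, 4.47-fold and 1.63-fold. The part that handling plays in the members' levels in these 2 kidneys was not tested.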

How the data were processed

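Messenger RNA of 10 bulk mouse kidneys was sequenced after polyA capture. The authors deposited raw counts per gene, made with STAR and featureCounts on mm10 (GRCm38) per the submitters' processing notes, which also name edgeR. Per the file headers featureCounts was version 1.5.2, a read over several genes was given to each, and strand was not used. The authors' deposited log2 table, for 13645 genes, equals log2 CPM with TMM scaling and served only as a check of the counts. Exon lengths come from the authors' deposited tables, in bases.

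Counts of the 4 KO and 4 WT libraries were filtered with filterByExpr, scaled by TMM and tested with edgeR 4.0.16 (quasi-likelihood, default settings) in R 4.3.3, with genotype as the only term and an adjusted p threshold of 0.05 over all genes. A prior count of 2 was used only in the log2 CPM of the deviations from genotype means and of the strain comparison. The script was tested on simulated data. Nothing in the labels says more of the replicates than that they are separate samples, so p-values measure the spread between these samples. The lowest chi-square per degree of freedom between a pair of replicates was 11.0, so no library was a repeat of another. The 2 strain libraries, 1 each, were compared with WT without a test, and entered the KO against WT fit only in the alternative with all 10 libraries.

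Members and gene lists were chosen with earlier results of these data known. In each list the 3 called genes with the lowest p were named. Likeness was Pearson's r, across the 8 libraries, of a gene's deviations from its genotype means with the mean deviation of the members, for genes of at least 1 CPM. Alternatives were DESeq2 1.42.0, limma 3.58.1 (voom), RLE scaling, no filter, all 10 libraries, equal depth, the sample name forms and leaving out libraries.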

Additional observations from a re-analysis of the deposited data

Results flagged for a closer look

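The 4 KO and the 4 WT values were examined for each of 61 genes (the members, the genes named from the lists or called in them, the 6 genes most like the members, Havcr1, Ehhadh, Hspa1a and Hspa1b) and 7 family shares. Of these 136 groups, 20 held a kidney that stood apart from the other three, and 5 of them lay in the 20 groups of the members. The cutoff would flag about 1 in 20 groups of independent, normally distributed values. The groups here share the same libraries and include genes picked because they follow the same kidneys. The counts are therefore not set against that rate. WT 3 stood high in Fos (3.30 CPM, the others 0.987 to 1.23), Fosb (0.582 CPM, the others 0.382 to 0.411) and Egr1 (11.6 CPM, the others 3.40 to 4.11). WT 2 stood high in Atf3 (2.48 CPM, the others 1.21 to 1.39), and KO 4 stood low in Btg2 (21.8 CPM, the others 43.5 to 44.1).

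Outside the members, WT 3 stood high in Pfkfb4 (28.4 CPM, the others 17.7 to 18.5) and in Ier3 (38.7 CPM, the others 25.8 to 26.6), and WT 2 in Ifrd1 (19.6 CPM, the others 17.3 to 17.4). KO 4 stood low in Pfkfb4 (11.5 CPM, the others 14.4 to 14.9), Hbegf (21.2 CPM, the others 32.6 to 34.6) and Bbc3 (4.88 CPM, the others 7.34 to 7.70). It stood high in Plau (413 CPM, the others 356 to 357) and Spp1 (1328 CPM, the others 676 to 767).

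WT 1 stood high in Ehhadh (3439 CPM, the others 2100 to 2232), and WT 4 in Hspa1a (51.3 CPM, the others 26.9 to 30.0) and Hspa1b (82.9 CPM, the others 40.0 to 46.0). Of the 6 genes most like the members, picked because they follow the same kidneys, WT 3 stood high in 4930592A05Rik (24.7 CPM, the others 21.4 to 21.9), Hist1h2bl (4.66 CPM, the others 3.91 to 3.98) and Fhl3 (5.29 CPM, the others 3.78 to 3.95), and KO 4 stood low in Pdgfa (11.3 CPM, the others 16.8 to 17.4).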

How the results depend on the processing

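Klf6 was called in all 18 alternative fits, Atf3 in 17, Jund in 12, Btg2 in 10, Jun in 4 and Junb in 3, and Fos, Fosb, Egr1 and Ier2 in none. The 18 include the fit without both KO 4 and WT 3, which was chosen after the data were seen and widens most differences. The counts of Klf6, Atf3, Jund, Btg2 and Jun each hold a call from it, and that of Junb does not. With the E-named kidneys alone, the genes called were 92 higher and 51 lower, with 1 member higher. In that fit Ier2 turned to -0.28, and it was also -0.038 in limma-voom and -0.0024 with the name form as a term. Without the E-named kidneys Fos was 0.20 and Egr1 0.37. Leaving out 1 library gave 610 to 916 genes higher, 381 to 722 lower and 2 to 5 members higher. The same fits gave log2 fold changes from -0.66 to 0.29 for Fos, -0.42 to 0.43 for Egr1 and -0.092 to 0.15 for Ier2, and -2.32 to 1.92 percentage points for the Jund share. Leaving out KO 4 and WT 3 together gave 628 and 422 genes, with Fos at 0.52 and Egr1 at 0.58. The test of the name forms called 38 genes with no filter, against 0. TMM and RLE scaling left the median of all genes at -0.0057 and -0.0060. No paired analysis was possible because the replicate numbers follow only the order of deposit. Fosb rested on 8 to 63 reads per library and Fos on 24 to 119, which limits the precision of their fold changes.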
